A study of Mus musculus with 4 samples.

Results

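The 10 genes described here are targets of p53, the transcription factor that mammalian cells stabilise after ultraviolet damage to DNA. They are Cdkn1a, Mdm2, Gadd45a, Ccng1, Phlda3, Sesn1, Sesn2, Zmat3, Trp53inp1 and Aen, taken by name from the 55487 genes of each deposited table. All 10 were found, each under 1 gene ID. RNA was sequenced from 4 libraries labelled as regulatory T cells of mouse skin, 2 from mice given narrow-band ultraviolet B (UVB) and 2 without UVB. The libraries are called UVB 1 and UVB 2, and non-UVB 1 and non-UVB 2, after their labels. Per the series' design text, dermatitis resembling psoriasis was induced by a daily dose of 60 mg of cream with 5% imiquimod on shaved back skin, and UVB was given 3 times, every other day. The text does not tell apart which libraries came from mice with the cream, and the library labels name only the UVB treatment. The sources used here do not give mouse strain, sex, age, UVB dose, the time between UVB and harvest, the method of cell isolation, or whether animals were pooled. Whether the replicates are separate animals is not stated either, and the p-values therefore reflect the spread of 4 libraries, which may be technical.

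p53 is held low by Mdm2, a ubiquitin ligase that is itself a p53 target, so the pathway carries its own negative feedback. Once stabilised, p53 raises genes that stop the cell cycle (Cdkn1a, Gadd45a, Ccng1), genes that restrain growth signalling and oxidative stress (Sesn1, Sesn2, Phlda3), and genes of cell death, autophagy and RNA control (Aen, Trp53inp1, Zmat3). In skin this response is best known in keratinocytes, the cells that absorb most UVB.

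The libraries rested on an estimated 2.38 to 4.2 gigabases of mapped sequence in reads of 100 bases. Regulatory T cell markers were uneven: Foxp3, their defining factor, was at 3.49 and 19.3 TPM in UVB 1 and UVB 2 and at 0 and 19.4 TPM in non-UVB 1 and non-UVB 2. TPM is a transcript abundance scaled to gene length and to the same total in each library. Icos, another regulatory T cell marker, had the opposite order, at 784 TPM in UVB 1 and 620 TPM in UVB 2. Without UVB it stood at 1221 TPM in non-UVB 1 and 826 TPM in non-UVB 2. The rest of the regulatory T cell markers listed ranked as Foxp3 did within each treatment, although Il2ra was nearly level without UVB (248 and 252 TPM). Markers of gamma-delta T cells, another T cell lineage of skin, summed to 9047 and 307.0 TPM in UVB 1 and UVB 2 and to 9827 and 177.0 TPM in non-UVB 1 and non-UVB 2. Keratinocyte markers summed to 408 and 3328 TPM in UVB 1 and UVB 2 and to 304 and 3996 TPM in non-UVB 1 and non-UVB 2. The libraries that share a number were thus more alike in both sums than the libraries that share a treatment. Of the keratinocyte markers, Krt10, Krt6a and Dsp went the other way without UVB, higher in non-UVB 1 than in non-UVB 2. Macrophage and dendritic cell markers summed to 19791 and 12822 TPM with UVB and to 11937 and 5985 TPM without it. The haemoglobin and erythroid genes listed held 11.7% of all TPM in non-UVB 1, and between 0.153% and 0.441% in the other 3 libraries. In these bulk libraries fewer cells of a type and less RNA per cell cannot be told apart.

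**Figure D1:**
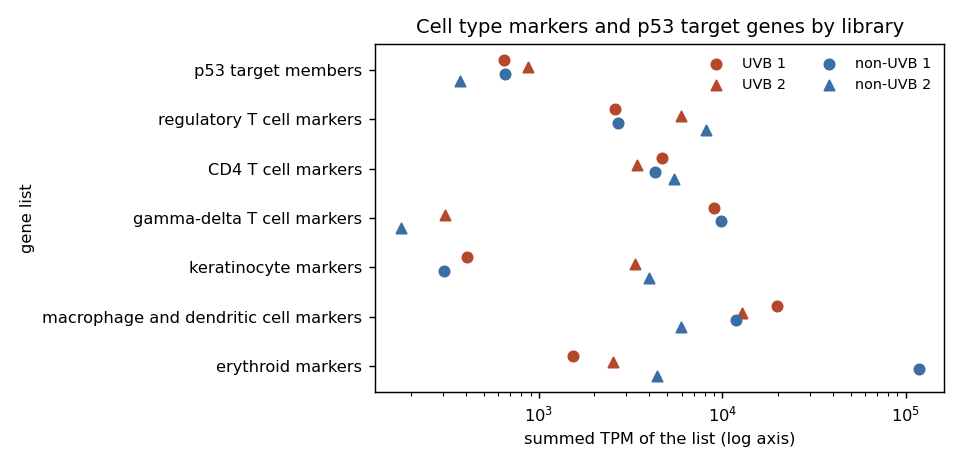
Summed TPM (log axis) of the 10 p53 target genes and of 6 marker lists, with 1 point for each library, circles for number 1 and triangles for number 2. The sums of gamma-delta and of keratinocyte markers separate the numbers. The sum of macrophage and dendritic cell markers was highest in UVB 1 at 19791 TPM and lowest in non-UVB 2 at 5985 TPM.

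What the promoters of these genes share was looked at first, since p53 acts by binding DNA. RefSeq windows on GRCm38.p6 that run from 250 bases before to 50 bases after a transcript start were found for 8 of the 10 genes, 11 windows in all. Trp53inp1 and Zmat3 are named only. The 10-base p53 half-site (3 purines, C, 2 bases that are A or T, G, 3 pyrimidines) was searched without mismatches on both strands, and no other motif was searched. Of the 8 genes, 6 held a half-site in at least 1 window, as did 9.55% of the 27025 genes with a window. Of the other p53 targets listed further on, 6 of 23 genes with a window did. The match is a description of letters and not evidence of binding in these cells.

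The window of the upstream Cdkn1a start, chr17:29090729-29091028 on the plus strand, is printed in full because it was the 1 window of these genes with 2 half-sites at most 13 bases apart, an arrangement found in 0.0731% of 32851 windows. Capitals mark the half-sites.
Cdkn1a: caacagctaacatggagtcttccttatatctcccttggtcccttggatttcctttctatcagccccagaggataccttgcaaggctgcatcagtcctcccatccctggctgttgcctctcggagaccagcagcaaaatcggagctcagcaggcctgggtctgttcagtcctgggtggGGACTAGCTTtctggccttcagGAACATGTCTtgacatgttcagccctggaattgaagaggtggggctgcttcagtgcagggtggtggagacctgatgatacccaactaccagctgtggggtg
The half-sites lie 12 bases apart and begin 73 and 51 bases before the upstream start, or 2863 and 2841 bases before the downstream start. The 10 bases that directly follow the second half-site match the half-site at 9 of 10 positions. Bases next to a half-site were compared in this way for Cdkn1a alone, so other genes may hold such a match too. The window of the downstream start held none.

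The half-sites of the other 5 genes are shown with 10 bases on either side, so that each can be set beside those of Cdkn1a. They lie at chr10:117710925-117710954 (minus strand) for Mdm2, chr6:67037428-67037457 (minus) for Gadd45a, chr11:40755452-40755481 (minus) for Ccng1, chr10:41887256-41887285 (plus) for Sesn1 and chr7:78895927-78895956 (plus) for Aen.
Mdm2: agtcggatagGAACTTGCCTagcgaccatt
Gadd45a: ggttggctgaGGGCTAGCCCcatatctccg
Ccng1: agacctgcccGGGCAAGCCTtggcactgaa
Sesn1: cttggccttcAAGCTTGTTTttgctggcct
Aen: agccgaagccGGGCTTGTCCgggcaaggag
The windows of Phlda3 and Sesn2 held no half-site, which says only that these letters are not in these windows.

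The first comparison asked whether the 10 genes differed with UVB. None passed the test. Ccng1 was the 1 gene with both UVB libraries above both non-UVB libraries, and Ccng1 and Gadd45a were higher with UVB within both replicate numbers. Cdkn1a and Mdm2 were higher with UVB among the libraries numbered 2 and lower among those numbered 1. Aen and Phlda3 reached 1 TPM in UVB 2 alone.

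Cdkn1a (ENSMUSG00000023067, chromosome 17, 29090976 to 29100727, plus strand), which encodes the cyclin-dependent kinase inhibitor p21, had 379 and 644 TPM in UVB 1 and UVB 2, against 529 and 169 TPM in non-UVB 1 and non-UVB 2. The groups overlapped, since non-UVB 1 lay above UVB 1. The difference was 0.72 ± 0.73 (SE, n = 2 per group) on the log2(TPM + 1) scale, and limma gave an adjusted p of 0.9996 (Benjamini-Hochberg, over 10286 genes). Within the numbers it was -0.48 in number 1 and 1.92 in number 2. It turned to -0.10 without non-UVB 2, the library with the lowest level. An annotated gene on the opposite strand, AC167363.2, overlaps Cdkn1a and was listed at 0 and 21.6 TPM in UVB 1 and UVB 2 and at 0 TPM in both non-UVB libraries. The sources used here do not say whether the libraries were stranded, so reads of the pair cannot be told apart.

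Cdkn1a was the most abundant of the 10 genes in every library. It made up 58.7% and 73.9% of their summed TPM in UVB 1 and UVB 2, and 81.1% and 45.3% in non-UVB 1 and non-UVB 2. The sum was 646 and 872 TPM in the UVB libraries, against 652 and 373 TPM in the non-UVB libraries. The gene next in order changed with the library: Gadd45a in UVB 1 and non-UVB 1, Mdm2 in UVB 2 and Sesn1 in non-UVB 2.

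Ccng1 (ENSMUSG00000020326, chromosome 11, 40748552 to 40755311, minus strand) encodes cyclin G1, which brings a phosphatase to Mdm2. It had 73.4 and 25.3 TPM in UVB 1 and UVB 2, against 13.5 and 0.438 TPM in non-UVB 1 and non-UVB 2. Both UVB libraries were above both non-UVB libraries. Of the non-UVB libraries only non-UVB 1 reached 1 TPM, so Ccng1 passed the filter of 1 TPM in 2 libraries through its UVB libraries. The difference was 3.28 ± 1.64 log2 (limma adjusted p = 0.703), at 2.36 in number 1 and 4.195 in number 2. It lay between 1.61 and 4.94 when 1 library was left out. Because the groups did not overlap, all of these differences had to be positive, so their sign adds nothing to the separation. Of the 7 genes tested, 1 had UVB above non-UVB without overlap and 0 had the reverse, where 23.2% and 9.71% of all genes tested did. The share of all genes separated upwards was higher than that of the 7, so the count is no result about these genes.

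Gadd45a (ENSMUSG00000036390, chromosome 6, 67035096 to 67037457, minus strand), a stress protein of cell cycle arrest and DNA repair, had 145 and 40.3 TPM in UVB 1 and UVB 2, against 60.2 and 27.8 TPM in non-UVB 1 and non-UVB 2. The groups overlapped, as UVB 2 lay below non-UVB 1, and both libraries numbered 1 were above both numbered 2. The difference was 0.89 ± 0.96 log2 (limma adjusted p = 0.9998), at 1.26 and 0.52 within numbers 1 and 2, and it was -0.024 without UVB 1.

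Mdm2 (ENSMUSG00000020184, chromosome 10, 117688875 to 117710758, minus strand), the feedback ligase of p53, had 41.9 and 72.6 TPM in UVB 1 and UVB 2, against 49.1 and 3.41 TPM in non-UVB 1 and non-UVB 2. Only non-UVB 2 was low, and the other 3 libraries lay within a narrow range. The difference was 1.92 ± 1.49 log2 (limma adjusted p = 0.947), at -0.23 in number 1 and 4.06 in number 2, and it was 0.16 without non-UVB 2. In the same library Cdkn1a, Ccng1 and Gadd45a were also at their lowest, while Sesn1 and Trp53inp1 were at their highest. Of all genes tested, 27.9% were highest in non-UVB 2, and the share at their lowest there was not counted.

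**Figure D2:**
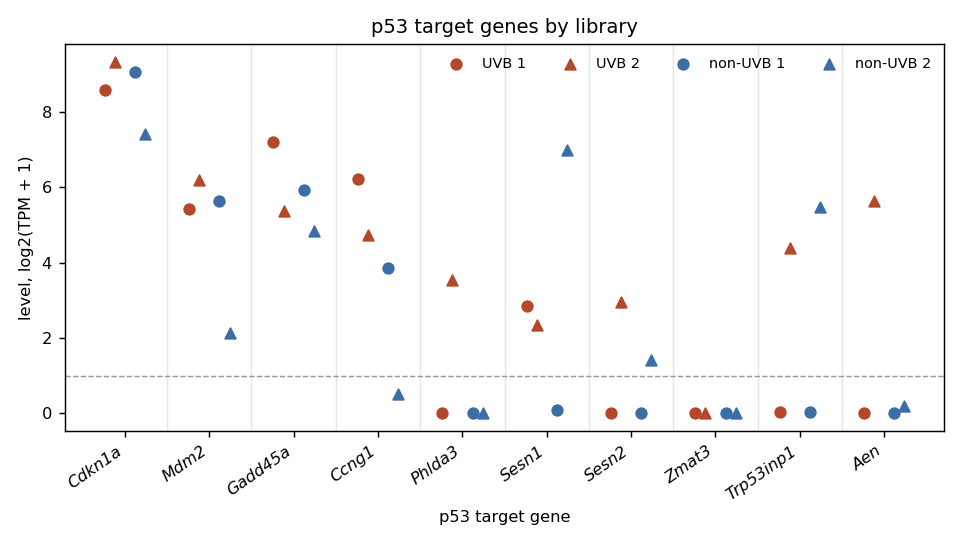
Level of each of the 10 p53 target genes in each library on a log2(TPM + 1) axis, with UVB libraries in red and non-UVB libraries in blue, circles for number 1 and triangles for number 2. The dashed line marks 1 TPM. Ccng1 is the 1 gene with both red points above both blue points, while Phlda3 and Aen lie above the line in UVB 2 alone.

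The sestrins, which hold back the growth kinase complex mTORC1 and limit oxidative stress, had unlike patterns. Sesn1 (ENSMUSG00000038332, chromosome 10, 41809935 to 41908424, plus strand) had 6.15 and 4.07 TPM in UVB 1 and UVB 2, against 0.070 and 127 TPM in non-UVB 1 and non-UVB 2. The non-UVB libraries held both its lowest and its highest value. The difference was -0.96 ± 2.69 log2 (limma adjusted p = 0.9998), at 2.74 in number 1 and -4.66 in number 2. It turned to 2.49 without non-UVB 2 and to 0.14 with a pseudocount of 0.1 in place of 1.

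Sesn2 (ENSMUSG00000028893, chromosome 4, 132492032 to 132510501, minus strand), a leucine sensor in the same pathway, was listed at 0 TPM in UVB 1 and had 6.75 TPM in UVB 2, against 0 TPM in non-UVB 1 and 1.67 TPM in non-UVB 2. It was seen only in the libraries numbered 2. The difference was 0.77 ± 1.24 log2 (limma adjusted p = 0.9998), and it was -0.71 without UVB 2 and -0.029 after quantile normalization. Sesn1 and Sesn2 each overlap another annotated gene on the same strand, 9930024M15Rik and Gm12981, both listed at 0 TPM in all 4 libraries.

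Trp53inp1 (ENSMUSG00000028211, chromosome 4, 11156431 to 11174379, plus strand), a nuclear stress protein with a role in autophagy and cell death, had 0.019 and 20.0 TPM in UVB 1 and UVB 2, against 0.026 and 43.5 TPM in non-UVB 1 and non-UVB 2. The libraries numbered 1 were close to 0 in both groups, so a difference with UVB can be read only in number 2, where it was -1.08. The difference over all libraries was -0.55 ± 2.67 log2 (limma adjusted p = 0.9998), and it turned to 1.64 and 2.17 without UVB 1 and without non-UVB 2.

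Aen, Phlda3 and Zmat3 did not reach 1 TPM in 2 libraries and were not tested. Aen (ENSMUSG00000030609, chromosome 7, 78895854 to 78911209, plus strand), a nuclease that degrades DNA in apoptosis, was listed at 0 TPM in UVB 1 and had 48.3 TPM in UVB 2, against 0 and 0.146 TPM in non-UVB 1 and non-UVB 2. Phlda3 (ENSMUSG00000041801, chromosome 1, 135766119 to 135769136, plus strand), which competes with the kinase Akt for membrane lipid, had 10.6 TPM in UVB 2 and was listed at 0 TPM in UVB 1 and both non-UVB libraries. Its mean read depth in UVB 2 was 8.94 reads per base, and that of Aen was 19.1. Zmat3 (ENSMUSG00000027663, chromosome 3, 32334792 to 32366014, minus strand), an RNA-binding regulator of splicing, was at 0 and 0.016 TPM in UVB 1 and UVB 2 and at 0 and 0.008 TPM in non-UVB 1 and non-UVB 2. Its read depth was at most 0.0176 per base, so no difference in Zmat3 was detectable at this depth.

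UVB 2 thus held more of the 10 genes than any other library. At 1 TPM or more, 5 and 9 of the 10 were present in UVB 1 and UVB 2, against 4 and 6 in non-UVB 1 and non-UVB 2. UVB 2 had the highest value for 6 of the 10 genes, and for 3 of the 7 tested, where 26.7% of all genes tested were highest in UVB 2. Of the 9 genes that reached 1 TPM in any library, 2 did so in UVB 2 alone, as did 8.97% of 13885 genes. Among the libraries UVB 2 was not the deepest, with the lowest estimated yield of the 4. Detection was also broader with UVB over all genes, with 10317 and 10227 genes at 1 TPM or more in UVB 1 and UVB 2 against 7825 and 8033 in non-UVB 1 and non-UVB 2.

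Over the 7 genes tested, 5 had a higher mean with UVB, where 61% of all genes tested did. Their median difference was 0.77 log2, beside 0.26 over all genes tested. With 7 genes this median is the value of 1 gene, here Sesn2, listed at 0 TPM in both libraries numbered 1. Without UVB 2 the median was 0.34 log2, below the 0.41 of all genes. It was 1.64 without UVB 1, 1.43 without non-UVB 1 and 1.48 without non-UVB 2, beside 0.43, 0.19 and 0.36 over all genes. Scaling the libraries to equal medians moved it to 0.16 and that of all genes to -0.35, with 5 of the 7 still higher, and after quantile normalization 4 were. Within the numbers the median was 0.00 in number 1 and 1.54 in number 2, beside 0.27 and 0.16 over all genes. The values 0.00 and 1.54 were again those of Sesn2, as was the 0.16 of the 7 genes after median scaling. At an adjusted p under 0.05 limma called 0 of the 7, as it called 0 (0%) of 10286 genes, and at an unadjusted p under 0.05 it called 0 of the 7 against 11.3% of all genes (9.97% higher and 1.37% lower). Of the 7, 2 were higher with UVB within both numbers, Ccng1 and Gadd45a, against 34% of all genes, and 1 had a lower value within both, Trp53inp1, against 17.7%, although in number 1 it was close to 0 TPM in both groups. These shares do not set the 10 genes apart from other genes. The sum of the 12 macrophage and dendritic cell markers was also higher with UVB within each number. Of these markers, Csf1r, H2-Aa and Itgax were lower with UVB in number 1, and Cst3 in number 2. The part of these markers in the values was not tested.

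**Figure D3:**
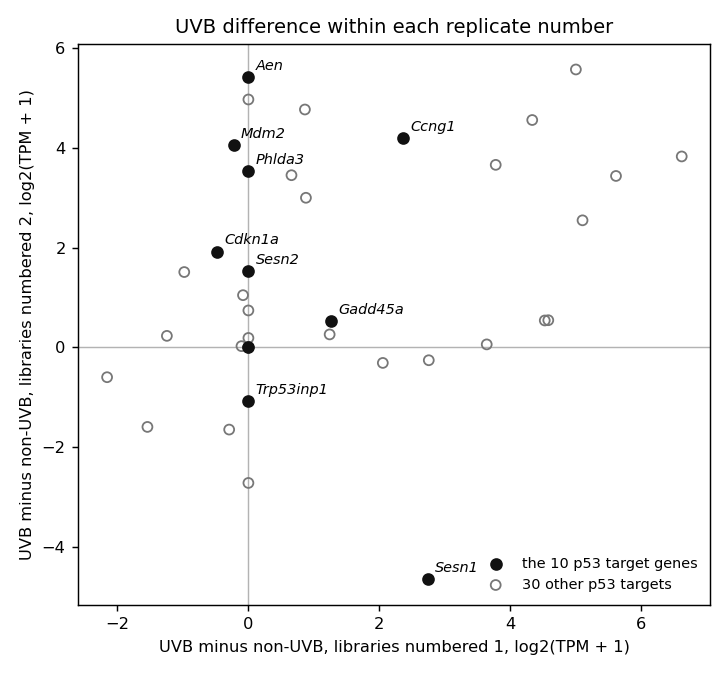
UVB minus non-UVB difference on the log2(TPM + 1) scale among the libraries numbered 1 (horizontal) and numbered 2 (vertical), with the 10 p53 target genes as filled points and 30 other p53 targets as open points. Ccng1 and Gadd45a lie in the upper right, Cdkn1a and Mdm2 in the upper left, Sesn1 in the lower right at 2.74 and -4.66, and Zmat3 is the unlabelled filled point at 0.

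The second comparison set the libraries numbered 2 against those numbered 1, whatever their treatment. Trp53inp1 and Sesn2 were present in number 2 and near or at 0 in number 1, and Gadd45a was higher in number 1. No gene of the 10 passed the test. The sources used here do not say what a number stands for.

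Trp53inp1 had 20.0 and 43.5 TPM in UVB 2 and non-UVB 2, against 0.019 and 0.026 TPM in UVB 1 and non-UVB 1. Its difference of number 2 minus number 1 was 4.90 ± 1.03 log2 (SE, n = 2 per number; limma adjusted p = 0.238 and unadjusted p = 0.00981). Sesn2 differed by 2.19 ± 0.68 log2 (limma adjusted p = 0.327 and unadjusted p = 0.0339), with 6.75 and 1.67 TPM in number 2 and 0 TPM in both libraries of number 1. Both genes passed the filter on low values only through the libraries numbered 2, so they had to differ in this comparison. In the other direction, Gadd45a had 40.3 and 27.8 TPM in number 2, against 145 and 60.2 TPM in number 1, a difference of -1.46 ± 0.70 log2 (limma adjusted p = 0.549).

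Of the 7 genes, 3 had a higher mean in number 2, where 53.4% of all genes tested did. Cdkn1a stood at -0.44 ± 0.76, Mdm2 at -1.36 ± 1.62, Ccng1 at -2.42 ± 1.98 and Sesn1 at 3.20 ± 2.22 log2, with limma adjusted p between 0.705 and 0.920. The numbers did not overlap for 3 of the 7 genes, with 2 higher in number 2 against 22.5% of all genes tested and 1 lower against 18.5%. At an unadjusted p under 0.05 limma called 2 of the 7, both higher, beside 12.5% of all genes (5.65% higher and 6.89% lower), and at an adjusted p under 0.05 it called 0 of the 7 and 0 (0%) of all genes. Of the 7, 2 were at 1 TPM or more in both libraries numbered 2 and in neither numbered 1, as were 4.99% of the genes tested. The sum of keratinocyte markers was high and that of gamma-delta markers low in the same libraries, with the values given above. Mitochondrially encoded genes held 6.42% and 5.73% of all TPM in UVB 2 and non-UVB 2, against 0.487% and 0.857% in UVB 1 and non-UVB 1. The part of these values in the differences was not tested.

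**Figure D4:**
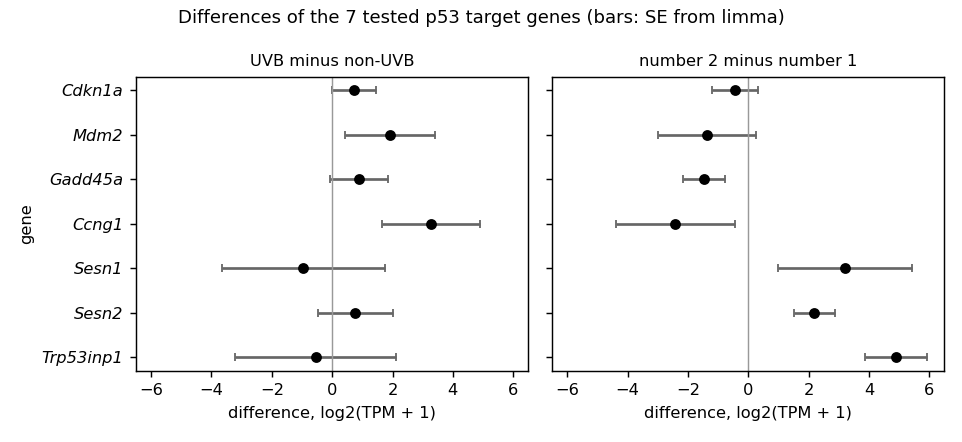
Differences on the log2(TPM + 1) scale with their SE from limma for the 7 p53 target genes tested, UVB minus non-UVB on the left and number 2 minus number 1 on the right. Ccng1 had the highest UVB difference at 3.28, and Trp53inp1 the highest number difference at 4.90.

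Upstream of the 10 genes, the transcript of p53 itself gave a difference smaller than its error. Trp53, which encodes p53, had 160 and 78.8 TPM in UVB 1 and UVB 2, against 121 and 94.5 TPM in non-UVB 1 and non-UVB 2, a difference of 0.07 ± 0.60 log2 (limma adjusted p = 0.9998). p53 is controlled chiefly through the stability of the protein, which RNA does not show. Of 22 genes of p53 and its regulators found under 23 names, 15 were tested, with none past the threshold by limma. With UVB 9 were higher and 6 lower, where 61% of all genes tested were higher, and the median was 0.32 log2. At an unadjusted p under 0.05 limma called 1, Prkdc, where it called 11.3% of all genes. After median scaling the list's median was -0.29, and the difference of Trp53 -0.54 log2. Rchy1, a ligase of p53, had 32.6 and 117 TPM in UVB 1 and UVB 2 and 0.165 and 70.9 TPM in non-UVB 1 and non-UVB 2. The ribosomal proteins Rpl5 and Rpl11, which bind Mdm2 under nucleolar stress, differed by -0.43 ± 0.43 and 0.32 ± 0.70 log2. Both have many near-identical pseudogenes, so their values are uncertain.

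Other genes of this list were picked with their values in view, and their patterns differed. Trp63, the p53 relative of basal keratinocytes, had 61.7 and 100.0 TPM in UVB 2 and non-UVB 2, against 0.015 and 0 TPM in UVB 1 and non-UVB 1. Mdm4, a partner of Mdm2 that restrains p53, had 65.5 TPM in UVB 2 and at most 0.761 TPM in the other 3 libraries, the pattern of Aen. The kinase genes of DNA damage signalling Atm, Chek1 and Chek2 were below 0.1 TPM in all 4 libraries. The related kinases Atr and Prkdc were measured, Atr at 0.542 and 0.682 TPM in UVB 1 and UVB 2 against 18.3 and 1.59 TPM in non-UVB 1 and non-UVB 2. Prkdc had 0 and 0.351 TPM with UVB and 16.3 and 9.24 TPM without it. Both had UVB below non-UVB without overlap, by -2.14 ± 1.23 log2 for Atr (limma adjusted p = 0.807) and -3.52 ± 0.82 log2 for Prkdc (limma adjusted p = 0.223). Atr and Prkdc passed the filter through the non-UVB libraries alone, so both had to differ.

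Of 30 other p53 targets, 21 were tested, and 15 of these had a higher and 6 a lower mean with UVB. Their median was 0.87 log2, at 0.86 in number 1 and 1.05 in number 2. UVB lay above non-UVB without overlap for 7 of the 21 (33.3%) and below it for 2 (9.52%), where 23.2% and 9.71% of all genes tested did. None passed limma's threshold, and 6 had an unadjusted p under 0.05, where 11.3% of all genes did. These were Polk, Fas, Dcxr, Gtse1 and Fdxr, which were higher, and Btg2, which was lower. Of the 7 separated upwards, 4 (Fas, Dcxr, Gtse1 and Fdxr) were at 1 TPM or more only in the UVB libraries, so they had to differ, and 10.1% of all genes tested reached that level in the UVB libraries alone. The count was 7 after quantile normalization and 6 after median scaling, where 17.1% and 15.1% of all genes tested lay above. After median scaling the list's median was 0.26 log2, beside -0.35 for all genes, and 12 of the 21 were higher, beside 38.6% of all genes. Earlier results on p53 genes in these libraries were known when this list was drawn up, so it is no independent support for a direction.

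Of the 7 genes, Bax is among the most abundant of the list and the others were picked with their values in view. Bax, a pore-forming death protein, had 667 and 533 TPM in UVB 1 and UVB 2, against 282 and 445 TPM in non-UVB 1 and non-UVB 2, a difference of 0.75 ± 0.42 log2 (limma adjusted p = 0.781), and its groups overlapped after median scaling. Apaf1, the scaffold of the apoptosome, had 33.4 and 63.8 TPM with UVB and 0 and 10.1 TPM without it. Polk, a polymerase that copies past DNA lesions, had 12.7 and 33.3 TPM with UVB and 0 and 1.71 TPM without it. Bax was at 1 TPM or more in all 4 libraries. Apaf1 and Polk reached that level in 1 non-UVB library alone, so they passed the filter through their UVB libraries.

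The other 4 reached 1 TPM with UVB alone. Fdxr, a mitochondrial reductase, had 19.2 and 27.5 TPM with UVB and 0 and 0.207 TPM without it. Dcxr, a carbonyl reductase, had 31.1 and 46.7 TPM with UVB and was listed at 0 TPM in both non-UVB libraries. Gtse1, which binds p53 and restrains it in G2, had 48.0 and 10.7 TPM with UVB and 0 and 0.079 TPM without it. Fas, a death receptor, completes the group with 104 and 24.5 TPM with UVB and 0.064 and 0.793 TPM without it. Their limma adjusted p lay between 0.223 and 0.249.

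Among the other abundant targets, Rps27l varied little, while Ddit4 and Btg2 varied more. Rps27l had 590 and 641 TPM in UVB 1 and UVB 2 and 635 and 631 TPM in non-UVB 1 and non-UVB 2, a difference of -0.04 ± 0.31 log2, although ribosomal protein genes can share reads with pseudogenes. Ddit4, an inhibitor of mTORC1, had 86.9 and 312 TPM with UVB and 86.9 and 186 TPM without it, a difference of 0.37 log2 that was -0.24 after median scaling. Btg2, an antiproliferative gene, had 131 and 173 TPM with UVB and 385 and 525 TPM without it. Its difference was -1.57 ± 0.43 log2 (limma adjusted p = 0.268). Bbc3, picked with its values in view, had 7.71 and 33.4 TPM with UVB and 37.9 and 51.2 TPM without it. That gene stood at -1.38 ± 1.05 log2 (limma adjusted p = 0.942). These were the 2 targets separated downwards. Both were lower with UVB within both numbers, as was Ppm1d, picked in the same way, at -0.97 ± 2.11 log2. Eda2r, a death receptor picked with its values in view, had 33.6 TPM in UVB 2 and at most 0.102 TPM elsewhere, as Aen and Phlda3 did. Perp, a p53 and p63 target of keratinocyte junctions picked in the same way, had 160 and 110 TPM in UVB 2 and non-UVB 2, against 22.1 and 0 TPM in UVB 1 and non-UVB 1.

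**Figure D5:**
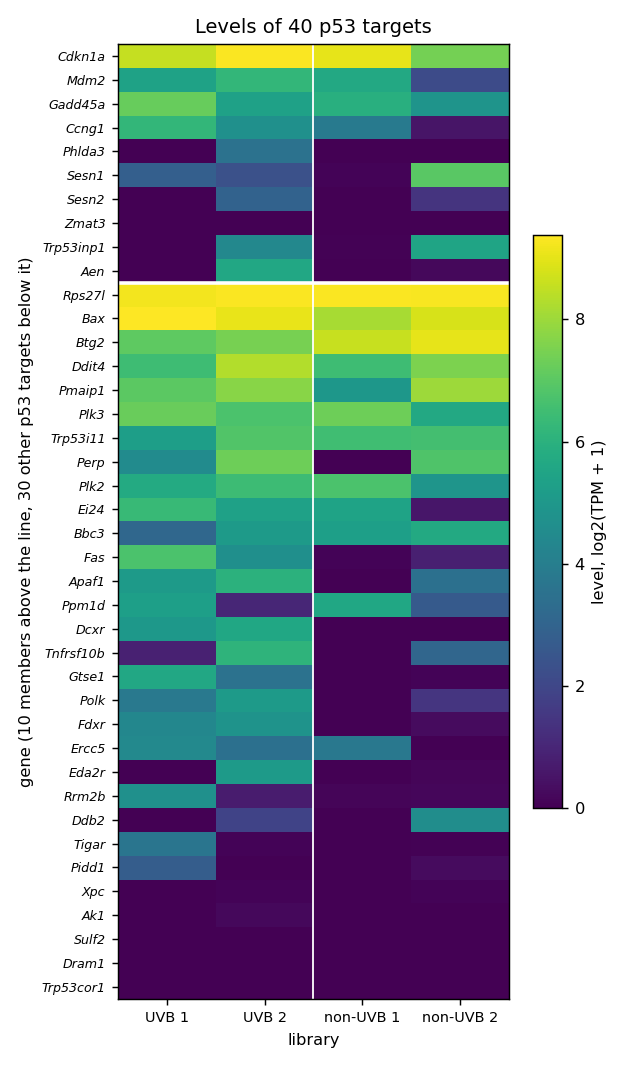
Levels as log2(TPM + 1) of the 10 p53 target genes (above the white line) and 30 other p53 targets (below it, by falling mean) in the 4 libraries, UVB on the left. Rps27l is even across libraries, Fdxr, Dcxr, Gtse1 and Fas are dark in both non-UVB libraries, and Phlda3, Aen and Eda2r are bright in UVB 2 alone.

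Paralogs of the 10 genes had other values. Of 13 listed, 10 were tested, 5 higher and 5 lower with UVB, where 61% of all genes tested were higher. Their median was -0.09 log2, and none was past the threshold by limma. At an unadjusted p under 0.05 limma called 2, Zmat2 and Sesn3, where it called 11.3% of all genes. Each of the 2 passed the filter on low values through 1 group alone. After median scaling 2 of the 10 were higher and 8 lower, where 38.6% of all genes tested were higher. Gadd45b, a relative of Gadd45a induced by NF-kappaB, had 427 and 373 TPM in UVB 1 and UVB 2, against 358 and 361 TPM in non-UVB 1 and non-UVB 2, so both UVB libraries were above both others with a difference of 0.15 ± 0.34 log2, which turned to -0.45 after median scaling. Gadd45g had 476 and 175 TPM with UVB and 187 and 417 TPM without it, and its groups overlapped. Phlda1 stood at -0.23 ± 0.56 log2 and Isg20, a nuclease related to Aen, at -2.34 ± 2.11. Sesn3, picked with its values in view, had 0.855 and 0.143 TPM with UVB and 5.55 and 8.50 TPM without it. Its difference was -2.44 ± 0.74 log2 (limma adjusted p = 0.337). The gene passed the filter on low values through the non-UVB libraries alone, so it had to differ.

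The cyclins and kinases that p21 binds had lower values with UVB for its 4 most abundant members, none past the test. Of 11 listed, 9 were tested, 5 higher and 4 lower, where 61% of all genes tested were higher. Their median was 0.13 log2, and it was -0.53 after quantile normalization and -0.48 after median scaling. The 4 lower genes had both UVB libraries below both non-UVB libraries, as did 9.71% of all genes tested, and no gene of the list tested had the reverse, as 23.2% of all genes did. Pcna overlapped after quantile normalization, and the other 3 did not overlap under either scaling. The share of all genes below without overlap was then 21.5% after quantile normalization and 20.2% after median scaling. Cdk4, the kinase of the G1 phase, had 128 and 92.4 TPM in UVB 1 and UVB 2, against 218 and 192 TPM in non-UVB 1 and non-UVB 2 (-0.90 ± 0.46 log2). Its cyclins Ccnd2 and Ccnd3 stood at -0.55 ± 0.51 and -0.79 ± 0.59, and Pcna, the sliding clamp of replication, at -0.11 ± 0.40. Their limma adjusted p lay between 0.714 and 0.9998. Of the 9 tested, 0 had an unadjusted p under 0.05 by limma, where 11.3% of all genes did.

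Of 8 genes of the GATOR complexes, through which sestrins act on mTORC1, 4 were tested, and none passed by limma. With UVB 2 were higher and 2 lower, where 61% of all genes tested were higher. Seh1l had 45.9 and 16.6 TPM in UVB 1 and UVB 2 and 0.035 and 1.87 TPM in non-UVB 1 and non-UVB 2 (4.06 ± 1.27 log2, limma adjusted p = 0.354). It was the 1 gene of the 4 at an unadjusted p under 0.05 by limma, where 11.3% of all genes were. As Apaf1 and Polk did, it passed the filter through its UVB libraries. Sec13 stood at -0.02 ± 0.85, Nprl2 at -0.12 ± 2.86 and Nprl3 at 0.82 ± 2.06 log2. Nprl2 was at 42.1 and 56.1 TPM in UVB 1 and non-UVB 1 and below 0.4 TPM in the libraries numbered 2.

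The genes closest to Cdkn1a across the 4 libraries were not p53 targets of these lists. Compared with 7823 genes that averaged 10 TPM or more, Commd1, Npepl1, Cep85, Rgs10 and Rab2a had the lowest root mean square difference from its centred log2(TPM + 1) values, between 0.086 and 0.118. Commd1, the nearest, had 27.9 and 51.4 TPM in UVB 1 and UVB 2 and 36.8 and 10.8 TPM in non-UVB 1 and non-UVB 2, in the same order of libraries as Cdkn1a. Mdm2 and Gadd45a lay at 0.89 and 0.94. With 4 libraries such likeness is a description only.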

How the data were processed

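Per the labels' protocols, total RNA was made into libraries with an ultra-low-input SMARTer kit and sequenced as single-end reads of 100 bases. The tools HISAT2, StringTie and DESeq2 and the builds GRCm38 and mm10 are named per the submitters' processing notes. The sources used here do not give their versions, roles or the annotation. Per the file headers, the authors deposited for each gene and library a coverage signal (mean read depth per base, not scaled to the library), FPKM and TPM. Counts were not analysed here, so values carry no counting interval and no count test applies.

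Rows of a gene ID were summed. Of 55487 IDs, 54784 had the same position in GENCODE M21, used for positions, overlaps and gene types. Depth was estimated from the ratio of deposited coverage to deposited FPKM. The test took the 10286 genes that reached 1 TPM in 2 or more libraries, as log2(TPM + 1), a scale that understates changes of low genes. limma 3.58.1 in R 4.3.3 was used with an intensity trend and Benjamini-Hochberg adjustment over all genes tested, at a threshold of 0.05, once with UVB and once with the replicate number as the only term. On simulated data with known changes the test recovered their size on average and, for most of the strongest, their direction. No simulated gene passed the adjusted threshold. The simulated noise was independent, with the genes' spreads shuffled among genes, so it does not measure detection in these data. With so few libraries the absence of calls is no evidence of equal levels. A gene listed at 0 may be a failed estimate and is described only as listed.

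The 10 genes and all lists were chosen with earlier results of these data known. The text names all 10 genes, the 4 genes with the highest mean TPM and any past the threshold in each further list, and the 5 genes nearest to Cdkn1a, and others were chosen after their values were seen, as stated beside them. Lists are described by counts and medians, without a set test. Mast cell, melanocyte and fibroblast markers were at 0 or summed to at most 55.7 TPM, neutrophil markers summed to 363 and 2203 TPM in UVB 1 and UVB 2 and to 447 and 3255 TPM in non-UVB 1 and non-UVB 2, and CD4 T cell markers to 4710 and 3424 TPM against 4296 and 5445 TPM. Regulatory T cell markers summed to 2610 and 5942 TPM in UVB 1 and UVB 2 and to 2696 and 8136 TPM in non-UVB 1 and non-UVB 2. Alternatives changed the pseudocount, filter, unit, scaling, genes behind the TPM total and spread model, added the other factor as a term, and left out each library. For the further lists the scalings were added after seeing the data.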

Additional observations from a re-analysis of the deposited data

How the results depend on the processing

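Under the alternatives tried, limma called 0 genes for UVB throughout (between 157 and 1344 at an unadjusted p under 0.05), and for the replicate number it called 0 except 12 among genes at 1 TPM or more in all 4 libraries and 13 after quantile normalization, none of them among the 10 p53 target genes. With the replicate block the UVB comparison called 0 genes; in this balanced design the block cannot change a mean difference. The numbers give no pairing by the labels. The deviations of the 2 libraries numbered 1 from their group means correlated at r = 0.165 across 10286 genes, which are not independent. The median UVB difference of the 7 genes ranged between 0.34 and 1.64 when 1 library was left out. The number median of -0.44 lay between -1.40 and 0.67 when 1 library was left out, at 0.89 with no filter (10 genes) and at -1.36 among the 3 genes at 1 TPM or more in all libraries. Scaling moved the median UVB difference of all genes tested to -0.19 (quantile normalization) and -0.35 (median scaling), against 0.26 as measured. Of genes at an unadjusted p under 0.05 for UVB, 87.9% were higher as measured, 70.4% after quantile normalization, 74.5% after median scaling and 58.6% among genes at 1 TPM or more in all 4 libraries. Relative to the median of all genes the 7 genes stood at 0.82 and 0.51, against 0.51 as measured, and at -0.070 without UVB 2 and 1.11 to 1.24 without 1 of the other libraries. Of 35 UVB differences of single genes under the 5 settings that can move one, 2 reversed, Sesn1 at 0.14 with a pseudocount of 0.1 and Sesn2 at -0.029 after quantile normalization, and of 35 number differences 0 did. Leaving out 1 library gave UVB differences between -0.10 and 1.54 for Cdkn1a, -0.024 and 1.80 for Gadd45a, -4.41 and 2.49 for Sesn1, -0.71 and 2.25 for Sesn2 and -3.27 and 2.17 for Trp53inp1. Number differences lay between -1.40 and 0.52 for Cdkn1a and between -3.39 and 0.67 for Mdm2. A group left with 1 library was taken to have the spread of the other group. The cause of these changes was not tested beyond the library left out. With 2 libraries per group the median SE of a UVB difference was 1.12 log2, which limits what could be detected.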

Other observations

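Other p53 targets and related genes, named here with their values in view, had patterns that the text above does not describe. Pmaip1, which encodes the death protein Noxa, had 128 and 207 TPM in UVB 1 and UVB 2, which lay between its lowest value, in non-UVB 1, and its highest, in non-UVB 2. Its difference of UVB minus non-UVB was 0.87 ± 1.21 log2, at 2.05 in number 1 and -0.31 in number 2. Tnfrsf10b, a death receptor, had 0.839 and 67.9 TPM with UVB and 0 and 7.60 TPM without it. Ddb2, a sensor of ultraviolet lesions in DNA, was listed at 0 TPM in both libraries numbered 1 and had 2.67 TPM in UVB 2 and 23.2 TPM in non-UVB 2.

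Among relatives of the 10 genes, Zmat2, a zinc finger gene of the Zmat family, had 40.5 and 77.6 TPM with UVB and 0.043 and 0.447 TPM without it (5.54 ± 1.12 log2, limma adjusted p = 0.223). It passed the filter on low values through the UVB libraries alone, so it had to differ.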
